A study of Mus musculus with 2 samples.

Results

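The cluster of miR-144 and miR-451 is a group of 3 microRNA genes on mouse chromosome 11, known for its abundance in red blood cells. Its members, Mir451a, Mir451b and Mir144, were found by symbol in GENCODE release M21 (build mm10), each under a single identifier, and made up 3 of the 2202 microRNA genes counted. Small RNA came from gastrocnemius, the large calf muscle, of 14-day-old males of B6CASTF1/J, the first-generation cross of C57BL/6 with CAST/EiJ mice. There were 2 biological replicates in 1 group, with 1 library each and no other tissue, age, sex or treatment. Both libraries carry the same donor identifier and mention several males, and whether a replicate was 1 animal or a pool is not stated. A difference between replicates is therefore a difference between these libraries, which may be partly technical. The value of 1 gene is a single count per library, which separates neither the parental alleles nor the mature arms of a hairpin.

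In the red cell lineage, miR-144 and miR-451 are cut from one primary transcript, which the factor GATA1 switches on. Most microRNA hairpins, that of miR-144 among them, are cut first by Drosha in the nucleus and then by Dicer in the cytoplasm. The hairpin of miR-451 is too short for Dicer: Argonaute 2 slices it in its 3′ arm, and the product is trimmed back to the mature end. In mice, loss of the cluster makes red cells more sensitive to oxidative stress, in part through the miR-451 target Ywhaz. In skeletal muscle, red cells are present within the blood vessels. The tables hold no messenger RNA, so globin transcripts were not analysed here.

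The 4 mature microRNAs of the 3 hairpins are shown first because their seeds, bases 2 to 8 in capitals, set which transcripts each can recognise. Sequences are those of RefSeq on GRCm38.p6, in which all 3 members were matched.
miR-451a: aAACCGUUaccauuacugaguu
miR-144-3p: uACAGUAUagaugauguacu
miR-144-5p: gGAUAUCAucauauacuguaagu
miR-451b: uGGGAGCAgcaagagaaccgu
No seed was shared among them, and no other mature microRNA in the sequence table had any of the 4 seeds. Over bases 2 to 7 alone, the miR-144-3p sequence was shared by 1 other microRNA, miR-101a-3p. The deposited counts are per hairpin, so they do not show whether miR-144-3p or miR-144-5p made up the reads of Mir144.

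The hairpins carry the difference in processing between the partners, and are printed with the mature sequences in capitals.
Mir451a, plus strand: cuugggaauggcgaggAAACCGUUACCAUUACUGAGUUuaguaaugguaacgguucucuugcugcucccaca
Mir451b, minus strand: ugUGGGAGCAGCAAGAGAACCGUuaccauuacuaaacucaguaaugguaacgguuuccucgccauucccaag
Mir144, plus strand: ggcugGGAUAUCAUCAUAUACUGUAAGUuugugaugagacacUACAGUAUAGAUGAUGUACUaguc
In the minimum free energy fold of each (RNAfold), the Mir451a hairpin had an unbroken stem of 17 base pairs closed by a loop of 4 bases. Its mature sequence ran from base 17 to base 38 of the hairpin, that is through the whole 5′ side of that stem and through every base of the loop. In the Mir144 hairpin both mature sequences lay on the stem, at bases 6 to 28 and 43 to 62, with 0 bases in the loop of 6 bases. The mature sequence of Mir451b also stayed on the 5′ side, at bases 3 to 23.

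Among all 1559 mature microRNAs that could be placed on a RefSeq hairpin with 1 apical loop, 2 (0.128%) held the whole loop. They were miR-451a and miR-468-5p, and miR-468-5p was named after its value was seen. An unbroken stem of at least 17 base pairs was found in 61 of 1005 hairpins (6.07%), Mir451a and Mir451b among them, while the longest unbroken stem of Mir144 had 9 base pairs, which was also the median of all hairpins. These are features of the predicted folds of annotated sequence and carry no read evidence.

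**Figure D1:**
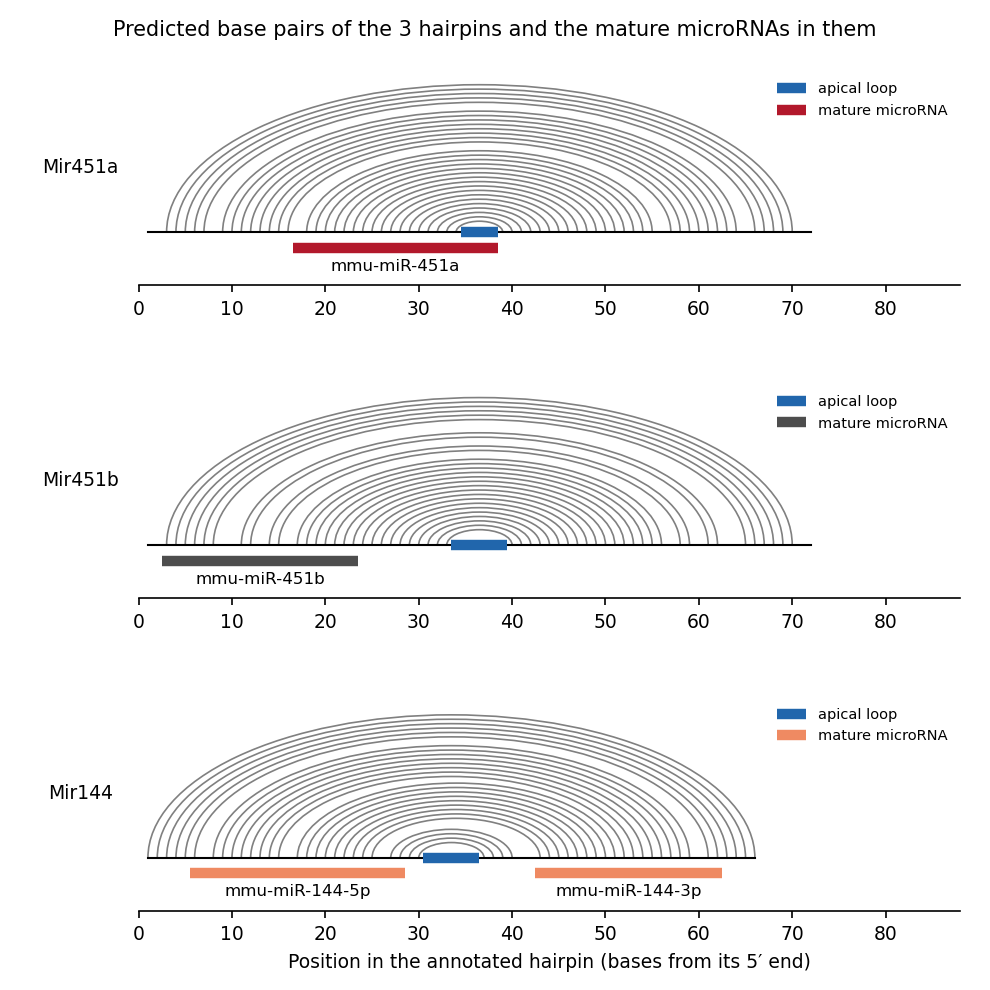
Predicted base pairs (grey arcs) along the hairpins of Mir451a, Mir451b and Mir144, by position in bases from the 5′ end; the coloured bars below each line are the mature microRNAs and the blue bar is the apical loop. The bar of miR-451a, from base 17 to base 38, covers its whole loop, whereas the bars of miR-451b, miR-144-5p and miR-144-3p end outside theirs.

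The cluster is compact and has no host gene. Mir144 (ENSMUSG00000065401.1) occupies chr11:78073005-78073070 on the plus strand, and Mir451a (ENSMUSG00000070065.1) follows at chr11:78073170-78073241 on the same strand, with 99 bases between them. Mir451b (ENSMUSG00000104813.1) is annotated over the same bases as Mir451a on the minus strand. No other annotated gene overlapped the cluster. The nearest genes were Flot2, which encodes the membrane raft protein flotillin 2, 12.6 kb to the left on the plus strand, and Eral1, which encodes a mitochondrial ribosome assembly factor, 134 bases to the right on the minus strand. The nearest other microRNA gene was Mir7653, 106 kb away.

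The measured cluster was mostly Mir451a. Mir451a had 1025 counts on its own strand in replicate 2 and 854 in replicate 1, which gave 464 and 311 CPM. CPM is a gene's count scaled to a fixed library total, here the total of all microRNA genes on their own strand. Mir144 had 237 counts in replicate 2 and 199 in replicate 1, or 107 and 72.5 CPM. Mir451b had 0 counts in both libraries. The levels of Mir451a lay above those of Mir144 in both libraries, with no overlap, and both were higher in replicate 2 than in replicate 1.

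Over both libraries Mir451a averaged 387 CPM ± 108 (SD, n = 2) and ranked 114 among the 2202 genes, and Mir144 averaged 89.9 CPM ± 24.5 (SD, n = 2) and ranked 186. A count of 0 for Mir451b allows up to 3 counts, equal to 1.36 CPM for replicate 2 and to 1.09 CPM for replicate 1. Together the members took up 0.0571% of the assigned counts of replicate 2 (0.0540 to 0.0603, the Wilson 95% range) and 0.0384% of those of replicate 1 (0.0361 to 0.0408). Counting error alone is 3.12% and 3.42% of the Mir451a count and 6.50% and 7.09% of the Mir144 count in replicates 2 and 1. Copies of a molecule made by PCR are counted separately, so these intervals and limits cover counting error only. In a bulk sample, fewer red cells and less of the microRNA per red cell cannot be told apart.

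**Figure D2:**
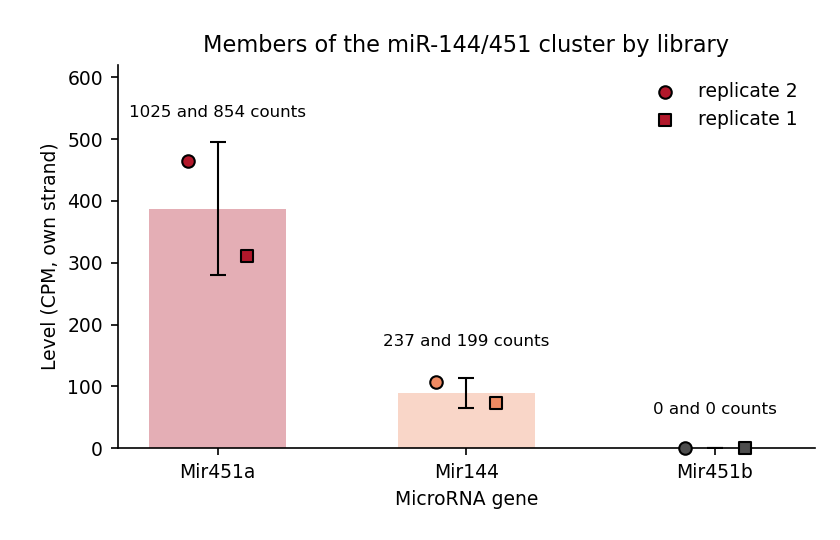
Level of each member in CPM (own-strand counts scaled to the library's total) in replicate 2 (circles) and replicate 1 (squares); bars are means, error bars are the SD of the 2 libraries, and the numbers are the counts in replicates 2 and 1. Mir451a, at 464 and 311 CPM, lies above Mir144, at 107 and 72.5 CPM, and Mir451b is at 0 in both.

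Of 8 microRNA genes of skeletal muscle, Mir206 stood at 68099 CPM ± 267 (SD, n = 2). The other 7 lay between 1.82 CPM (Mir133a-2) and 277 CPM (Mir499) in mean level, all below the mean of Mir451a. In replicate 1, however, Mir499 stood at 338 CPM, above Mir451a at 311 CPM, so their order is not resolved by the replicates. Mir1a-2 had 246 CPM, Mir1a-1 had 12.2 CPM and Mir133b had 26.2 CPM. The copies of Mir1a, and those of Mir133a, encode the same mature microRNA. A read that fits both copies is counted for neither, so the levels of these genes are uncertain. The same holds for other genes with a copy that are named below, such as Mir92-1, Mir26a-2, Mir16-1 and Mir24-1. In the same libraries the endothelial Mir126a stood at 89259 CPM ± 12484. Of the leukocyte genes, the myeloid Mir223 was lowest, at 139 CPM ± 0.236. Mir342 (835 CPM ± 86.1) and Mir146 (535 CPM ± 48.3) stood above Mir451a in mean level. Mir155 (350 CPM ± 29.2), Mir150 (322 CPM ± 14.0) and Mir142 (203 CPM ± 6.83) stood below it in mean level. In replicate 1, however, Mir155 at 329 CPM and Mir150 at 312 CPM stood above Mir451a at 311 CPM. The order of Mir155, Mir150 and Mir451a is therefore not resolved by the replicates. Directly above Mir451a in mean level stood Mir92-1, of the miR-17-92 cluster, at 432 CPM ± 20.3, and Mir770 at 449 CPM ± 161. Directly below it stood Mir338 at 366 CPM ± 19.4 and Mir136, of the imprinted Dlk1-Dio3 region, at 359 CPM ± 64.8. Around Mir144 the order was Mir362 (91.7 CPM ± 2.34) and Mir130b (90.0 CPM ± 5.74) above, and Mir208b (84.3 CPM ± 0.314), from an intron of the slow myosin gene Myh7, and Mir26a-2 (83.1 CPM ± 7.78) below. For each of these 8 genes the range of the libraries overlapped that of the member beside it, so the order among these neighbours is not resolved by the replicates.

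Mir101a, Mir101b and Mir101c are the genes named for miR-101, and Mir101c had 0 counts in both libraries. Mir101a, whose 3p sequence shares bases 2 to 7 with miR-144-3p, stood at 53.8 CPM in replicate 2, against 82.7 CPM in replicate 1. Mir101b stood at 793 CPM in replicate 2, against 928 CPM in replicate 1. Both were lower in replicate 2, with log2 ratios of −0.66 and −0.27 (exact binomial test, adjusted p = 0.00012 and 3.89e-09), whereas Mir144 was higher there. The match is that of miR-101a-3p alone, and the genes were chosen after it was seen.

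Strand decided whether Mir451a was measured at all. All of the reads on its bases lay on its own, plus strand: the opposite-strand count of Mir451b, which collects reads from the other strand of its bases, was 1025 in replicate 2 and 854 in replicate 1, the same numbers as the own-strand count of Mir451a. With 0 reads on the minus strand, Mir451b was at most 0.293% of Mir451a in replicate 2 and 0.351% in replicate 1, by the limit of 3 counts. Mir144, which has no gene opposite it, likewise had 0 counts on its minus strand in both libraries, and its either-strand and own-strand counts were the same.

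In the either-strand column, Mir451a and Mir451b both had 0 counts in both libraries. Reads under overlapping genes are listed there as ambiguous, and own-strand counting left 0 ambiguous reads. The 1025 and 854 reads of Mir451a would make up 0.202% and 0.132% of the 508345 and 647240 ambiguous reads of replicates 2 and 1. The cluster is then left with Mir144 alone.

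**Figure D3:**
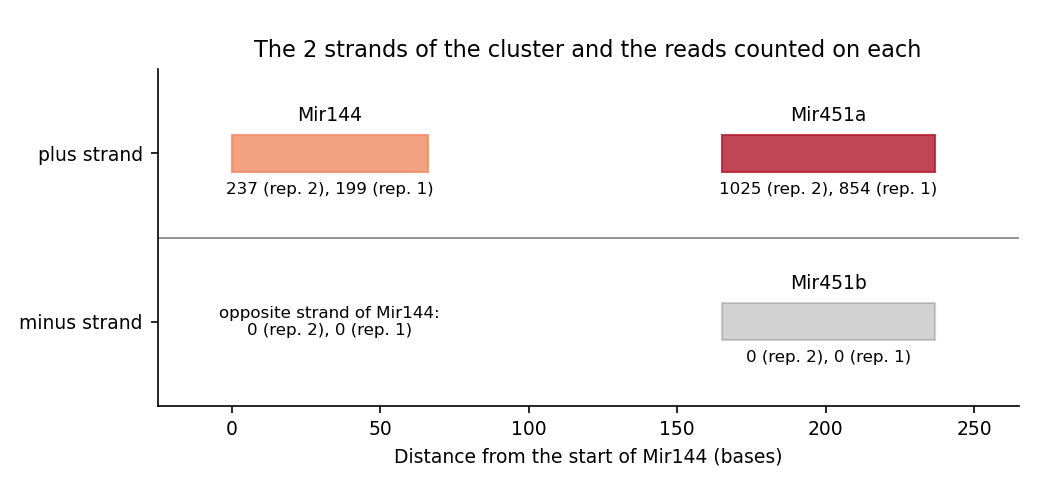
The annotated members drawn to scale on the 2 strands, by distance in bases from the start of Mir144, with the number of reads counted on each strand in replicates 2 and 1. The reads lie on the plus strand, and Mir451b, opposite Mir451a, has 0 in both libraries.

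The same loss was found in other genes with a partner on the opposite strand. Of the 258 genes that reached 10 CPM in each library, 25 (9.69%) kept less than 50% of their counts in the either-strand column, and these were all the genes among them that overlap a microRNA gene on the opposite strand. They formed 22 pairs, of which Mir451a and Mir451b ranked 14 by level. In 14 of the 22 pairs, the Mir451 pair and 13 others, the weaker strand had 0 counts in both libraries. The other 13 were those of Mir378a, Mir191, Mir30e, Mirlet7e, Mir409, Mir376a, Mir497, Mir380, Mir539, Mirlet7f-1, Mir142, Mir374b and Mir24-2. A count on both strands was found in 8 pairs, those of Mir126a, Mir299a, Mir337, Mir486, Mir338, Mir136, Mir1a-2 and Mir24-1. Among these, the weaker strand reached at most 29.9% of the stronger for Mir24-1 with Mir3074-1, and 2.09% for Mir486 with Mir3107. Reads that fit both Mir24-1 and its copy Mir24-2 are in neither count, so the 29.9% is uncertain. Likewise, a read that fits both Mir486 and Mir3107 is in neither count, so the 2.09% is uncertain.

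The sequence itself is close to symmetric between the strands. The Mir451b hairpin is the exact reverse complement of the Mir451a hairpin, and read 5′ to 3′ the hairpins had the same base at 52 of 72 positions (72.2%). The longest stretch of mature miR-451a that also occurs in the Mir451b hairpin was 16 bases, from base 2 to base 17, shown in capitals.
miR-451a: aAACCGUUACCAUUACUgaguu
That stretch was in 0 other hairpins of the sequence table. A read confined to it would match both strands of the locus and would be among the reads that mapped to several loci, which are in no gene's count. Read lengths are not in the tables, so how many such reads there were was not tested. Replicate 2 held 4266018 reads at several loci out of 8189059 in all, and replicate 1 held 4421485 out of 10056843. Outside the cluster, the longest stretch that miR-451a shared with any hairpin, on either strand, was 10 bases.

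The partners on the plus strand stood in nearly the same proportion in both libraries. Mir451a had 4.32 counts per count of Mir144 in replicate 2 (95% exact interval 3.75 to 5.00) and 4.29 in replicate 1 (3.67 to 5.03), a mean ratio of 4.31 ± 0.0236 (SD, n = 2). Per base of hairpin, 72 in Mir451a and 66 in Mir144, the mean ratio was 3.95. Hairpin length is not the length or number of mature products, so this is a description and not a correction. Mir451a was thus 81.2% of the cluster's counts in replicate 2 and 81.1% in replicate 1. Between the libraries, the ratio differed by 0.011 on the log2 scale, with a 95% exact conditional interval of −0.30 to 0.32, so a shift of up to that size would not have been detectable at this depth.

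Other neighbouring microRNA genes give the frame for that ratio. There were 37 pairs of adjacent genes on one strand, at most 500 bases apart and each partner reaching 10 CPM in each library. The higher partner stood at 1.04 to 132 times the lower, with a median of 4.74 and quartiles of 1.46 and 9.65. The highest was Mir27b over Mir24-1, which had 81 counts in replicate 2 and 97 in replicate 1. Reads that fit several copies of a microRNA are in no gene's count, so ratios with such genes, Mir24-1 among them, are uncertain. Mir451a over Mir144 ranked 21 of 37. Ratios lie above 1 because the higher partner is placed on top, and the size of this one lay near the middle.

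How far the partners moved apart between libraries can be set against the other pairs too. The log2 ratio of replicate 2 over replicate 1 differed by 0.016 between Mir451a and Mir144, against a median difference of 0.335 over the 37 pairs and a highest of 0.59. Closer agreement was found in 2 pairs, named after their values were seen: Mir15a with Mir16-1 (0.000), and Mir411 with Mir299a (0.014). Apart from the 1 CPM added before the log, the difference of 0.016 restates the change of the Mir451a to Mir144 ratio. It is not a second agreement. The counting interval of that change, −0.30 to 0.32, reaches close to the median of 0.335. The place of this pair among the 37 is therefore not resolved by the counts. The pairs share libraries, and some share a gene, so no test was made.

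**Figure D4:**
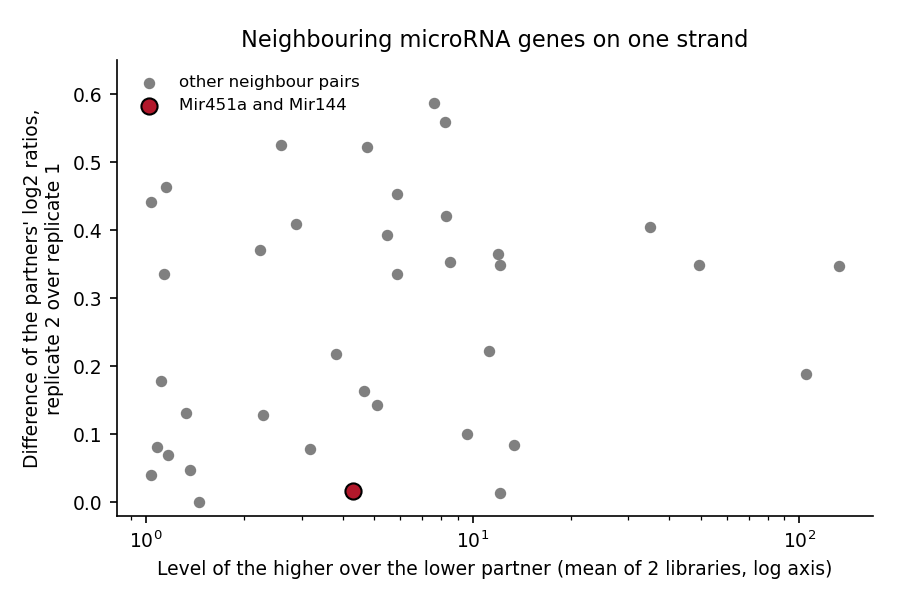
For 37 pairs of adjacent microRNA genes on one strand, the level of the higher over the lower partner (log axis, mean of 2 libraries) against the difference between their log2 ratios of replicate 2 over replicate 1. The pair of Mir451a and Mir144 lies at a level ratio of 4.31 and a difference of 0.016, near the bottom of the plot.

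Both expressed members were higher in replicate 2. After scaling of library sizes by the trimmed mean of M-values (TMM), the log2 ratio of replicate 2 over replicate 1, on log2(CPM + 1), was 0.53 for Mir451a, a 1.44-fold difference with a 95% counting interval of 0.40 to 0.66 (exact binomial test, adjusted p = 1.66e-14). For Mir144 it was 0.51, or 1.42-fold, with an interval of 0.24 to 0.80 (exact binomial test, adjusted p = 0.000586). Mir451b had no count and was not tested. The 2 members tested were called higher, where 19.0% of the 258 genes tested were called higher and 31.8% lower in replicate 2, 50.8% in all. The split over all genes turns with the scaling, to 67 higher and 66 lower with total gene counts, against 49 and 82 with TMM sizes.

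That test covers counting error within these libraries and not the spread between samples. With a biological coefficient of variation of 12.8%, estimated from both libraries as one group, edgeR's exact test called neither member (adjusted p = 0.832 for Mir451a and 0.95 for Mir144), and 3 of 258 genes (1.16%) in all. That estimate takes the difference between these libraries as spread, so few calls were built in. The lack of a call therefore decides nothing about the members. By size alone, 23 of the 258 genes (8.91%) had a log2 ratio at least as far from 0 as that of Mir451a, and 26 (10.1%) one at least as far as that of Mir144. The median absolute log2 ratio was 0.178.

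**Figure D5:**
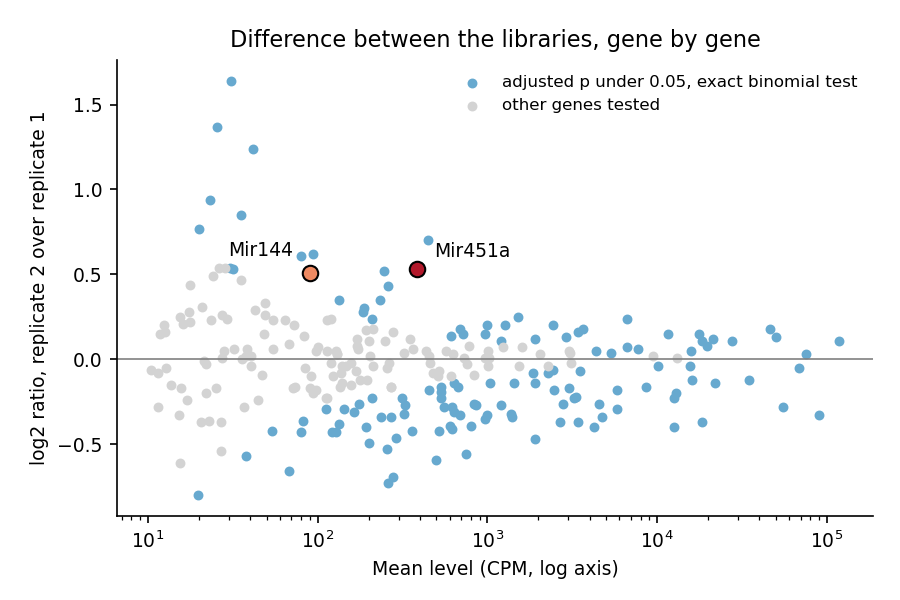
Log2 ratio of replicate 2 over replicate 1 against mean level in CPM (log axis) for the 258 genes that reached 10 CPM in each library; blue points passed the exact binomial test at an adjusted p of 0.05. Mir451a, at 0.53, and Mir144, at 0.51, lie side by side above most genes of similar level.

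The 5 genes whose log2 ratio between these 2 libraries was nearest that of Mir451a were Mir1a-2 (0.52), Mir184 (0.53), Mir664 (0.54), Mir133b (0.54) and Mir31 (0.54). Of these, Mir664 and Mir133b were not called by the exact binomial test (adjusted p = 0.0508 and 0.0615). Mir1a-2 and Mir133b are microRNAs of striated muscle. The other muscle genes tested did not lie near them: Mir499 was at −0.69, Mir133a-1 at −0.24, Mir206 at −0.05 and Mir208b at −0.05. With 2 samples, likeness is a single number per gene.

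Red cell microRNAs outside the cluster made up a list of 10 genes that are abundant in red cells or induced in their maturation, most of which other cells express too. By the exact binomial test 1 of the 10 was higher and 4 were lower in replicate 2, with 5 not called, against 19.0% higher and 31.8% lower over all 258 genes, so the counts lie near those shares. Their median log2 ratio was −0.07 against −0.037 over all genes tested. The summed level of the list was 3910 CPM in replicate 2, against 4180 CPM in replicate 1. Mir486, which lies in the ankyrin gene Ank1 and is abundant in both red cells and muscle, was the 1 higher, at 650 CPM in replicate 2, against 572 CPM in replicate 1 (log2 ratio 0.14, exact binomial test, adjusted p = 0.0178). A read that fits both Mir486 and Mir3107, annotated on the opposite strand, is in neither count, so this level and call are uncertain. Mir15a, the highest of the list by these counts, had 903 CPM in replicate 2, against 1099 CPM in replicate 1 (log2 ratio −0.33). Its neighbour Mir16-1 (−0.33), Mir25 (−0.27) and the hypoxia-induced Mir210 (−0.36) were lower too.

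A shorter list held 5 genes known to decline or to act against maturation in the red cell lineage. Of these, Mir221, which targets the receptor gene Kit, was higher in replicate 2 at 207 CPM, against 165 CPM in replicate 1 (log2 ratio 0.28, exact binomial test, adjusted p = 0.00876). Mir191, the most abundant of the list, was higher by 0.04 on the log2 scale, and Mir24-2 was lower (−0.43). The other 2 were not called. For 5 genes, 2 higher and 1 lower are too few to set apart from the 19.0% and 31.8% over all genes tested.

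Of 6 leukocyte genes, 0 were higher and 2 lower in replicate 2 by the exact binomial test, against 19.0% higher and 31.8% lower over all genes tested, which is no result about leukocytes at this number. Their summed level was 2323 CPM in replicate 2, against 2442 CPM in replicate 1, with 0 members at a count of 0. Mir342, the most abundant, had 774 CPM in replicate 2, against 896 CPM in replicate 1, a log2 ratio of −0.26, and Mir146 was also lower (−0.23). Mir142, Mir150, Mir155 and Mir223 were not called, with log2 ratios of 0.02, 0.04, 0.12 and −0.04. The endothelial Mir126a was lower in replicate 2 (−0.33), and its partner Mir126b, with 4 counts in each library, was not tested. Of 8 skeletal muscle genes, 6 were tested: 1 was higher (Mir1a-2, 0.52) and 2 were lower (Mir499, −0.69, and Mir206, −0.05), counts near the shares of 19.0% and 31.8% over all genes tested. Their summed level was 68563 CPM in replicate 2, against 68964 CPM in replicate 1. Nearly all of it was Mir206, at 67909 and 68288 CPM. Reads that fit both copies of Mir1a, or of Mir133a, are in no gene's count, so this share is uncertain. The part of blood content or of any of these cells in the difference of Mir451a and Mir144 was not tested.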

How the data were processed

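MicroRNA genes were counted in 2 small RNA libraries of 14-day gastrocnemius, 1 group. Per the labels and the notes the authors deposited, the values are whole-number counts per gene on mm10 with annotation M21, in 3 columns (either, own and opposite strand). The aligner, counter and trimming are not given in the sources used here. The 4 lines naming no gene stayed out of library sizes and tests. Replicate 2 had 2211254 own-strand counts out of 8189059 reads (27.0%), and replicate 1 had 2743657 out of 10056843 (27.3%). Most of the rest mapped to several loci. Own-strand counts were used.

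CPM and log2 ratios were computed here from the deposited counts. The exact binomial test was two-sided (scipy 1.17.1), on TMM sizes (edgeR 4.0.16, R 4.3.3) with Benjamini-Hochberg adjustment over the 258 genes that reached 10 CPM in each library, called at 0.05. Alternatives were DESeq2 1.42.0 sizes, total counts, all mapped reads, other filters, the either-strand column and edgeR's exact test. Hairpins were folded with RNAfold 2.7.2. The list names Mir92a-1 and Mir92a-2 stand in the annotation as Mir92-1 and Mir92-2.

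Named were the members, the 2 genes on either side of each in level, the 5 nearest in log2 ratio, opposite-strand pairs, and each list's most abundant and called genes. Members and lists were chosen with earlier results of these data known.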

Additional observations from a re-analysis of the deposited data

How the results depend on the processing

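Of 47 values recomputed with both libraries, 37 were classed as kept. The levels and log2 ratios among them kept their direction and side of the threshold, or their size within the replicate spread. Counts of genes have no direction or replicate spread. Some classed as kept still differed, such as 67 higher and 66 lower with total gene counts, against 49 and 82. The 0 of Mir451b stays 0 under any scaling, so its values test nothing. The tally is therefore no measure of stability. Values without 1 replicate are those of the other library, 311 to 464 CPM for Mir451a and 72.5 to 107 CPM for Mir144, and with 2 libraries they say nothing about stability. In the either-strand column Mir451a fell to 0 CPM and the ratio of Mir451a to Mir144 to 0, Mir144 stood at 117 CPM because the total there is smaller, and the cluster held 0.0117% of counts; Mir451a then had no log2 ratio to test, and Mir144 was not testable at 100 CPM. With edgeR's exact test, whose spread estimate includes the difference tested, the log2 ratios of 0.53 and 0.51 were not called (adjusted p = 0.832 and 0.95). There 3 genes were higher and 0 lower in replicate 2, against 9 and 6 at an unadjusted p under 0.05. Across the alternatives to TMM sizes with the exact binomial test, the log2 ratio of Mir451a was 0.42 to 0.57 and that of Mir144 0.40 to 0.56, each called. The lowest came with all mapped reads as library sizes, chosen after seeing the data, where 25 genes were higher and the median of all genes tested was −0.146. A change of library size moves all genes alike, so the distance of Mir451a and Mir144 from that median, 0.56 and 0.55, is fixed and does not test them. With neighbours up to 10000 bases apart there were 76 pairs, and Mir451a over Mir144 ranked 43 by ratio. No paired analysis was possible because there is 1 group. Mir144 rests on 237 counts in replicate 2 and 199 in replicate 1, which limits its precision.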
